A study of Mus musculus with 32 samples.

Results

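The 9 genes for secreted or shed factors, Gpnmb, Spp1, Lgals3, Igf1, Vegfa, Pdgfa, Pdgfb, Hbegf and Osm, were followed in forebrain microglia of rTg4510 tau transgenic and wild type (WT) mice. The genes were listed by name as factors of disease-associated microglia and trophic factors, with no threshold on a measured value, and all 9 were found among the 18588 genes of the deposited table. Values are log2 gene signals, the level of a gene in one library after normalization, on which a step of 1 is a doubling of the linear signal.

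The study asked how the microglial transcriptome differs between the genotypes at 2, 4, 6 and 8 months of age. rTg4510 mice carry a pair of transgenes. One holds human 4-repeat tau with the P301L mutation under a tetracycline-responsive promoter, and the other holds the tTA activator under the CaMKIIα promoter, which limits tau to forebrain neurons after birth. Doxycycline shuts this system off. WT animals were littermates with neither transgene, given in the labels as 129/FVB F1. All animals were female, and each library came from 1 pool of forebrains (8 to 10 animals) from which CD11b-positive cells had been taken with antibody-coated beads, so that the spread between libraries is a spread between pools. There were 32 libraries, 4 in each of 8 groups. The authors excluded 4 of them after failed RNAseq QC, namely both libraries numbered 3 at 4 months and both numbered 4 at 8 months. The remaining 28 give 4 libraries per group at 2 and 6 months and 3 per group otherwise.

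Microglia are the resident macrophages of the brain, and around damaged neurons or protein deposits they take up a disease-associated state with higher lysosomal, lipid-handling and secreted products. Gpnmb is a transmembrane glycoprotein of the lysosome and plasma membrane that is shed, Spp1 encodes osteopontin, a secreted ligand of integrins and CD44, and Lgals3 encodes galectin-3, a lectin that binds β-galactosides. Igf1, Vegfa, Pdgfa, Pdgfb and Hbegf encode growth factors that act through receptor tyrosine kinases, and Osm encodes oncostatin M, an IL-6 family cytokine that signals through Il6st paired with Osmr or Lifr.

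The promoters of Gpnmb and Spp1 are shown because these genes had the largest differences between the genotypes among the factors. They are the 250 bases before the RefSeq start site on the plus strand of GRCm38.p6, Gpnmb at chr6:49036268-49036517 and Spp1 at chr5:104434861-104435110, written 5′ to 3′ with a match to a searched motif in capitals.
Gpnmb: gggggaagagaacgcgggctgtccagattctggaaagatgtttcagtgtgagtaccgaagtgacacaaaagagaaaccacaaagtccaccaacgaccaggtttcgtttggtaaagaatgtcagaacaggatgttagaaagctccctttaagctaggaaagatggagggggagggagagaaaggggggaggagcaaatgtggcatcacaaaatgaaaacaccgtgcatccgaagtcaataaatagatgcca
Spp1: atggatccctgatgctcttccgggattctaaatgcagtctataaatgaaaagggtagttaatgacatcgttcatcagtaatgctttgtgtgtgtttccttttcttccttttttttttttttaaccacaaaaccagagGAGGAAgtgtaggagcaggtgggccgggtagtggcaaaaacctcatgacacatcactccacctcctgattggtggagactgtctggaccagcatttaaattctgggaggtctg
Both strands were searched for CACGTG (an E-box), TCATGTG (an M-box, the site of the MITF family), TGANTCA (AP-1), GAGGAA (an ETS core), ACGTG (a hypoxia response core, contained in CACGTG) and the NF-κB consensus. Among all 32851 RefSeq windows of this length, these were present in 6.0%, 3.3%, 6.7%, 23.3%, 16.6% and 1.4%. The Gpnmb window held no match, and the Spp1 window held 1 GAGGAA that begins 113 bases before the start site. Windows of 4 further factors were searched. Igf1 held TGAATCA and GAGGAA, Vegfa and Pdgfa each held an ETS core in 1 of 2 windows, the other Vegfa window held a hypoxia response core, and Lgals3 held none of these letters. Expression alone was measured, so these matches describe the sequence only.

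Of the 9 factors, 1 was higher in rTg4510 microglia at 2 months (Spp1), against 1.58% of all genes, and 0 were lower, against 0.403%. In the 4-month groups 6 were higher (Gpnmb, Spp1, Lgals3, Igf1, Pdgfa and Osm), against 9.47% of all genes, and 1 was lower (Hbegf), against 4.33%. The same 6 were higher at 6 months, against 11.3%, and Hbegf was lower, against 8.54%. At 8 months these 6 were again higher, against 10.5%, and 0 were lower, where limma called 5.37% of all genes lower and 0 factors were lower at an unadjusted p under 0.05. Vegfa and Pdgfb were called at no age. A gene was called when its false discovery rate (FDR) was under 0.05 and its change above 1.5 fold. The median difference over the 9 factors was 0.21, 0.89, 1.71 and 1.43 on the log2 scale at 2, 4, 6 and 8 months, beside 0.01, -0.04, -0.04 and -0.01 over all genes. All rTg4510 libraries lay above all WT libraries for 2, 8, 7 and 6 of the 9 factors at these ages, beside 7.49%, 19.1%, 18.2% and 21.2% of all genes, and below them for 0, 1, 1 and 1, beside 3.51%, 17.5%, 14.6% and 15.5%.

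**Figure D1:**
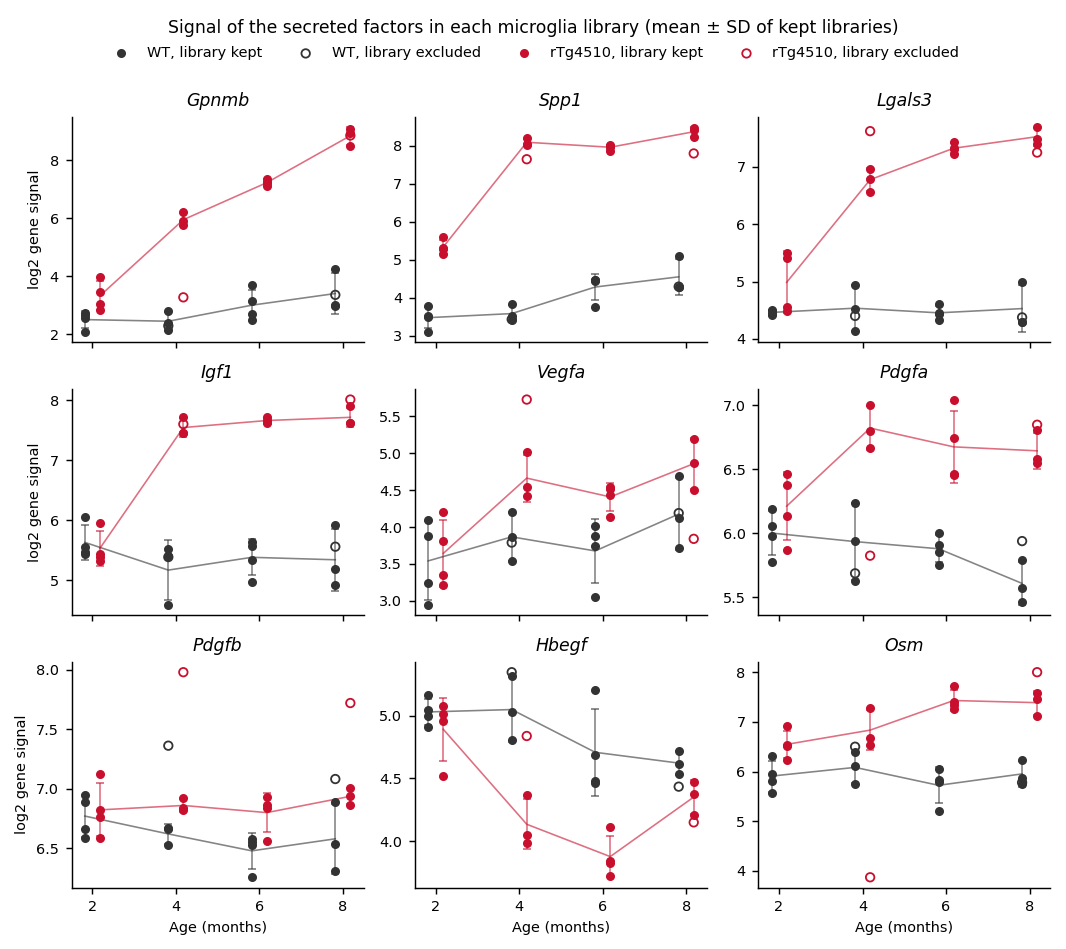
Log2 gene signal (vertical axis, a scale for each gene) against age in months for the 9 factors, with 1 point per library, WT in black and rTg4510 in red, filled for the 28 kept libraries and open for the 4 excluded ones, and lines through the mean ± SD of the kept libraries. Gpnmb in rTg4510 climbed from a mean of 3.32 at 2 months to 8.85 at 8 months, Igf1 stepped from 5.53 to 7.54 between 2 and 4 months, and Hbegf is the factor whose filled red points lie under the filled black ones at 4, 6 and 8 months.

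The libraries carried the markers of microglia at high level, with Cx3cr1 between 13.02 and 14.05. Of 15 microglia markers 1, 4, 5 and 5 were lower in rTg4510 at 2, 4, 6 and 8 months, beside 0.403%, 4.33%, 8.54% and 5.37% of all genes. Tmem119 was among the lower ones from 4 months on, at -0.74, -0.78 and -0.72. C1qa was the 1 marker called higher, at 6 and 8 months, beside 11.3% and 10.5% of all genes. Markers of other cells were also present, among them Mrc1 of border macrophages at 8.84 to 10.1, Ccr2 of monocytes at 5.50 to 7.44 and S100a8 of neutrophils at 5.21 to 8.54, while Ly6g lay near the lowest values in 16 of 28 libraries and Syt1 in 14. At 6 months 11 of 14 neutrophil markers and 3 of 12 border macrophage markers were lower in rTg4510 and none of either list was called higher. Of 8 monocyte markers 2 were higher, Fn1 and Vcan, and 4 lower. Of the markers of other lists, 1 of 9 for lymphocytes was higher and 1 lower, 2 of 6 for neurons were lower, 1 of 10 for astrocytes was higher (Gfap) and 2 lower, 0 of 10 for oligodendrocytes were called in limma at any age, and 2 of 9 for pericytes were higher and 1 lower. The summed neutrophil signal spanned 10.5 to 11.1 in WT and 10.3 to 10.4 in rTg4510, the summed border macrophage signal 10.98 to 11.49 and 10.68 to 11.02, and the summed signal of 15 microglia markers 15.4 to 15.6 and 15.0 to 15.2. The part of other cells in the values of the factors was not tested. In such bulk RNA, fewer cells of a type and less RNA per cell cannot be told apart.

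Gpnmb, on chromosome 6 at 49036518 to 49058182 of GRCm38.p6, had the largest difference of all 18588 genes at 8 months. At 2 months its signal was 2.56, 2.07, 2.64 and 2.73 in the WT libraries and 3.45, 2.83, 3.97 and 3.03 in the rTg4510 libraries. At 4 months WT libraries held 2.38, 2.15 and 2.80 and rTg4510 libraries 5.76, 5.89 and 6.19. At 6 months WT libraries held 3.69, 2.70, 3.12 and 2.47 and rTg4510 libraries 7.10, 7.24, 7.37 and 7.20. The genotypes did not overlap at any of these ages, and the gap widened with each. At 8 months WT libraries held 2.95, 4.23 and 3.01 and rTg4510 libraries 9.09, 8.95 and 8.50. The difference between genotypes was 0.82 ± 0.29 (SE) at 2 months, which did not pass the test (FDR 0.126), and then 3.50 ± 0.34, 4.23 ± 0.29 and 5.45 ± 0.34 on the log2 scale at 4, 6 and 8 months (FDR 1.03e-07, 3.78e-10 and 2.14e-10), or 11.3, 18.8 and 43.6 fold. All WT libraries of 2 and 4 months lay near the lowest value of the library, within the 3 counts that the low values appear to stand for. From that floor to the rTg4510 mean, with no allowance for the spread between pools, the change at 4 months was at least 7.14-fold higher. At 2 months 3 of 4 rTg4510 libraries lay there too, so no size is given for that change against the floor. The rises of Gpnmb in rTg4510 from 2 months, given below, thus start near the floor. So did 3 of 4 WT libraries lie at 6 months and 2 of 3 at 8 months, and the folds at these ages are not exact. By fitted difference Gpnmb ranked 20th of all genes at 4 months, 4th at 6 months and 1st at 8 months.

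Spp1, on chromosome 5 at 104435111 to 104441053, was the factor with a call at 2 months, where its difference ranked 5th of all genes. Its signal at 2 months was 3.52, 3.50, 3.10 and 3.77 in WT and 5.61, 5.16, 5.27 and 5.29 in rTg4510. At 4 months it was 3.82, 3.40 and 3.52 in WT and 8.03, 8.04 and 8.19 in rTg4510. The 2 genotypes were thus apart by more than the range of either group at both ages. At 6 months WT libraries held 4.47, 3.75, 4.43 and 4.46 and rTg4510 libraries 7.87, 7.97, 8.01 and 7.98, and at 8 months WT libraries held 4.27, 5.10 and 4.27 and rTg4510 libraries 8.40, 8.47 and 8.22. The difference was 1.86 ± 0.18 (SE) at 2 months (FDR 2.61e-06, 3.63 fold) and 4.51 ± 0.21 at 4 months (22.7 fold), and 3.68 ± 0.18 and 3.82 ± 0.21 at 6 and 8 months. Spp1 also changed with age in WT, by 1.07 ± 0.20 from 2 to 8 months (FDR 0.0049), where 0.533% of all genes rose in WT and 0.737% fell. WT replicate 2 of 8 months was the highest WT library, and without it the change was 0.80 with an FDR of 0.0333. With the spread of these 2 groups alone the call was lost (FDR 0.225).

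Lgals3, on chromosome 14 at 47373860 to 47386167, did not separate the genotypes at 2 months. WT libraries held 4.49, 4.43, 4.42 and 4.50, and rTg4510 libraries 5.41, 4.56, 5.50 and 4.48, so that rTg4510 replicates 1 and 3 stood about a log2 unit above replicates 2 and 4, which lay near the WT range. Replicates 1 and 3 were also the 2 highest for Gpnmb, and their mean log2 signal over 20 disease-associated microglia genes was 9.27 and 9.39 beside 9.16 and 9.19 in replicates 2 and 4. At 4 months WT libraries held 4.14, 4.52 and 4.95 and rTg4510 libraries 6.97, 6.56 and 6.79. At 6 months WT libraries held 4.44, 4.45, 4.61 and 4.32 and rTg4510 libraries 7.31, 7.22, 7.32 and 7.43. At 8 months WT libraries held 4.29, 4.999 and 4.29 and rTg4510 libraries 7.49, 7.70 and 7.39. From 4 months on the genotypes were clear of each other. The difference was 0.52 ± 0.21 (SE) at 2 months (FDR 0.183) and 2.24 ± 0.24, 2.87 ± 0.21 and 2.997 ± 0.24 at the later ages (FDR 3.86e-07, 6.74e-10 and 6.8e-09), or 4.72, 7.31 and 7.99 fold.

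Igf1, on chromosome 10 at 87858265 to 87937047, went from no detectable difference to a nearly constant one. At 2 months WT libraries held 6.06, 5.47, 5.55 and 5.44 and rTg4510 libraries 5.96, 5.39, 5.33 and 5.44. At 4 months WT libraries held 5.52, 5.40 and 4.59 and rTg4510 libraries 7.46, 7.45 and 7.72. The groups therefore interleaved at 2 months and lay almost 2 log2 units apart at 4 months. At 6 months the range was 4.98 to 5.63 in WT and 7.61 to 7.72 in rTg4510, and at 8 months 4.92 to 5.92 and 7.62 to 7.90. The difference was -0.10 ± 0.22 (SE, FDR 0.902), then 2.37 ± 0.25, 2.28 ± 0.22 and 2.37 ± 0.25 at 4, 6 and 8 months (FDR 3.39e-07, 3.85e-08 and 2.67e-07), or 5.19, 4.85 and 5.18 fold. WT replicate 2 of 8 months was the highest WT library of that age for Igf1, Gpnmb, Spp1 and Lgals3 alike. Its summed border macrophage markers were 11.74 beside 11.18 and 11.01 in replicates 1 and 3, and its mean over the disease-associated microglia genes 8.86 beside 8.47 and 8.54. The differences of Igf1, Gpnmb and Lgals3 at 8 months were 2.66, 5.86 and 3.23 without this library.

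**Figure D2:**
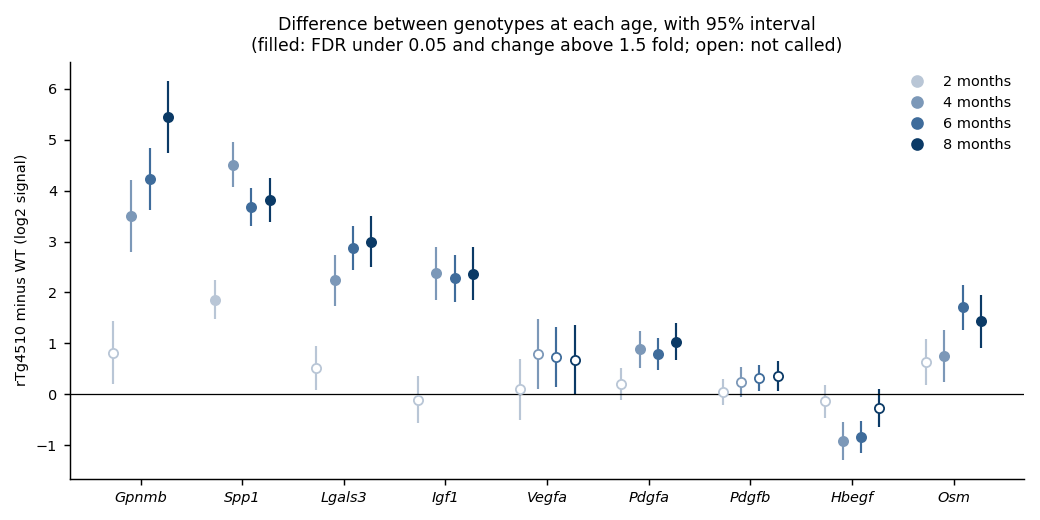
Difference between rTg4510 and WT in log2 signal (vertical axis) for each factor (horizontal axis) at 2, 4, 6 and 8 months, from light to dark blue, with 95% confidence intervals and filled points where the gene was called. The 4 largest factors exceed 2 from 4 months on, Spp1 is the one filled point at 2 months at 1.86, and Hbegf lies below 0.

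Pdgfa, on chromosome 5 at 138976014 to 139000792, encodes the A chain of platelet-derived growth factor, a ligand of oligodendrocyte precursors. WT libraries held 5.78, 6.19, 6.06 and 5.98 at 2 months, and rTg4510 libraries 6.38, 6.14, 6.46 and 5.87, which overlapped. At 4 months WT libraries held 6.24, 5.63 and 5.94 and rTg4510 libraries 6.67, 7.001 and 6.80. From that age the groups no longer overlapped, with 5.75 to 6.00 against 6.45 to 7.04 at 6 months and 5.46 to 5.79 against 6.55 to 6.80 at 8 months. The difference was 0.21 ± 0.15 (SE, FDR 0.564) at 2 months and 0.89 ± 0.17, 0.80 ± 0.15 and 1.04 ± 0.17 at the later ages (FDR 0.000588, 0.00027 and 9.32e-05), or 1.85, 1.74 and 2.05 fold. With the spread taken only from the 6 libraries of 4 months, the FDR at that age was 0.0727.

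Pdgfb, the B chain, on chromosome 15 at 79995865 to 80024614, and Vegfa, the endothelial growth factor on chromosome 17 at 46016993 to 46032377, did not pass the test at any age. Libraries of the genotypes did not overlap for Pdgfb at 4 months and for Vegfa at 4 and 6 months. Pdgfb spanned 6.26 to 6.94 over all WT libraries and 6.57 to 7.12 over all rTg4510 libraries, with differences of 0.05, 0.24, 0.32 and 0.36 at 2, 4, 6 and 8 months and 95% intervals that reached at most 0.65. Its FDR at 6 months was 0.0456, but the change of 1.25 fold was under the threshold. Vegfa varied more, from 2.95 to 4.69 in WT and from 3.21 to 5.20 in rTg4510. The difference of Vegfa was 0.10 ± 0.29 (SE) at 2 months and 0.80 ± 0.33, 0.73 ± 0.29 and 0.68 ± 0.33 at 4, 6 and 8 months (FDR 0.0914, 0.0534 and 0.145). Its intervals at 4 and 8 months, 0.11 to 1.48 and -0.01 to 1.37, hold changes above 2 fold, so these libraries do not show that Vegfa was alike in the genotypes. With all 32 libraries Vegfa passed the test at 4 months (1.08, FDR 0.0158). At 6 months Vegfa passed the test with moderated variances (FDR 0.0481), after quantile normalization (FDR 0.0299), and without any one of rTg4510 replicate 2 and WT replicates 1 and 4 of 2 months, WT replicate 2 of 6 months, and WT replicates 1 and 3 of 8 months (FDR 0.0437 to 0.0486).

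Hbegf, on chromosome 18, encodes heparin-binding EGF-like growth factor, which is released from the membrane by ADAM proteases. It was the one factor that fell. WT libraries held 5.05, 5.16, 4.997 and 4.91 at 2 months, and rTg4510 libraries 5.01, 5.08, 4.52 and 4.96. At 4 months WT libraries held 4.80, 5.32 and 5.03 and rTg4510 libraries 4.05, 3.99 and 4.36. At 6 months WT libraries held 4.69, 4.46, 5.21 and 4.48 and rTg4510 libraries 3.84, 3.72, 4.11 and 3.83. At 8 months WT libraries held 4.72, 4.61 and 4.53 and rTg4510 libraries 4.37, 4.47 and 4.20. At 4, 6 and 8 months every rTg4510 library lay below every WT library. The gap was smaller at 8 months, but its change from 6 months was not called (0.56, FDR 0.9999). The difference was -0.14 ± 0.15 (SE), -0.92 ± 0.18, -0.83 ± 0.15 and -0.27 ± 0.18 at 2, 4, 6 and 8 months (FDR 0.754, 0.000503, 0.000195 and 0.292). At 4 months the FDR was 0.0606 with the spread of the libraries of that age alone. Among 22 immediate early and dissociation genes, the stress genes Hspa1a and Hspa1b were lower at 4 months, by -1.99 and -2.23, and at 6 months, by -1.68 and -1.99, while Nr4a1, an immediate early transcription factor, rose by 1.396 and 2.25. Nr4a1 was also higher at 2 and 8 months, by 1.43 and 2.24. At 2, 4, 6 and 8 months 2, 3, 5 and 3 of these 22 genes were higher, beside 1.58%, 9.47%, 11.3% and 10.5% of all genes. Lower were 0, 3, 3 and 1 of these 22 genes, beside 0.403%, 4.33%, 8.54% and 5.37% of all genes. Their part in the Hbegf values was not tested.

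Osm, on chromosome 11 at 4236785 to 4241026, was 6.31, 5.81, 5.95 and 5.57 in WT at 2 months and 6.91, 6.23, 6.50 and 6.53 in rTg4510. At 4 months it was 6.39, 5.75 and 6.12 in WT and 6.53, 6.68 and 7.29 in rTg4510. At 6 months it was 5.79, 5.21, 6.05 and 5.83 in WT and 7.401, 7.25, 7.73 and 7.33 in rTg4510. The groups overlapped at 2 months, were barely apart at 4 months and stood over a log2 unit apart at 6 months. At 8 months the ranges were 5.75 to 6.24 and 7.12 to 7.59. The difference was 0.64 ± 0.21 (SE, FDR 0.0923), 0.75 ± 0.25 (FDR 0.0314), 1.71 ± 0.21 (FDR 1.66e-06) and 1.43 ± 0.25 (FDR 0.000123) at the 4 ages. The call at 4 months did not hold without rTg4510 replicate 4 (0.52, FDR 0.182), WT replicate 2 (0.58, FDR 0.148) or WT replicate 4 (0.77, FDR 0.0664) of that age, nor with the spread of that age alone (FDR 0.206). With all 32 libraries the difference was -0.09, where the 2 added libraries held 3.87 in rTg4510 and 6.50 in WT. At 2 months Osm passed without WT replicate 1 (FDR 0.0433).

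The time of the change was asked next, by testing whether the difference between genotypes itself differed between neighbouring ages. From 2 to 4 months it grew for Spp1 by 2.65 ± 0.28 (SE, FDR 3.84e-06), for Gpnmb by 2.69 ± 0.45 (FDR 0.000711), for Igf1 by 2.47 ± 0.33 (FDR 7.91e-05) and for Lgals3 by 1.72 ± 0.32 (FDR 0.00186). These were 4 of 9 factors, where the difference grew for 3.77% of all genes. It fell for Hbegf by 0.78 ± 0.23 (FDR 0.0466), where 0.893% of all genes fell, and this call was kept in 8 of 28 fits with 1 library removed, those without rTg4510 replicate 3 of 2 months, replicate 4 of 4 months or replicate 3 of 6 months, or without WT replicate 2 of 2 months, replicate 1 of 4 months or replicates 2, 3 or 4 of 6 months, and lost without any other, at an FDR of up to 0.131. From 4 to 6 months and from 6 to 8 months 0 factors were called in the limma fit, where the difference grew for 0.0377% and fell for 0.118% of all genes over the first of these steps and was called for 0% over the second. At an unadjusted p under 0.05 the first step held 2 factors, Osm at 0.96 and Spp1 at -0.83, and the second held Gpnmb at 1.22 and Hbegf at 0.56. From 4 to 8 months, a comparison added after the values had been seen, 0 factors were called in limma, against 0.0377% of all genes up and 0.102% down, with Gpnmb at 1.94 ± 0.48 (FDR 0.112), and 4 factors had an unadjusted p under 0.05, Gpnmb, Spp1, Lgals3 and Hbegf. Gpnmb had 64.3% of its 8-month difference at 4 months and 77.7% at 6 months, Lgals3 74.7% and 95.7%, Osm 52.3% and 119%, Igf1 100.1% and 96.0%, and Spp1 118.1% and 96.4%.

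**Figure D3:**
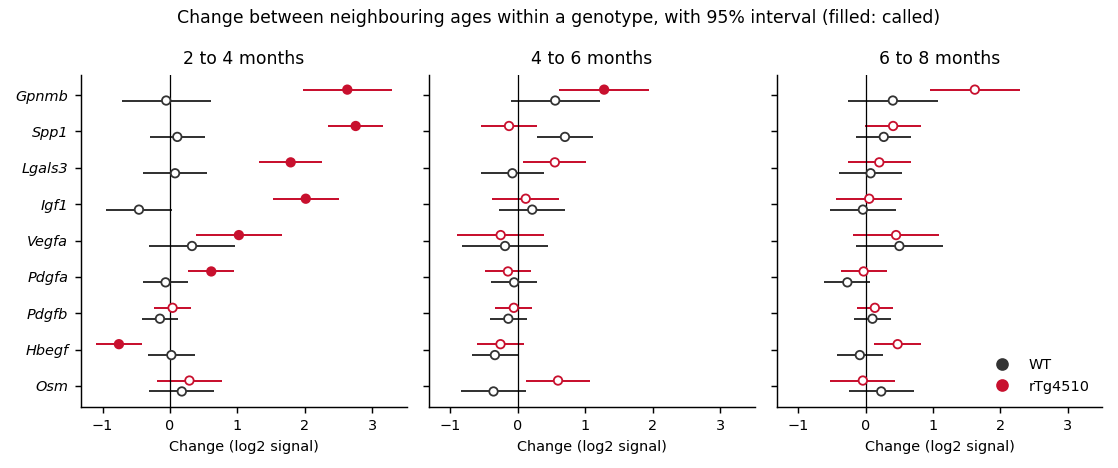
Change in log2 signal between neighbouring ages (horizontal axis) of each factor in WT (black) and rTg4510 (red), in 1 panel per step from 2 to 4, 4 to 6 and 6 to 8 months, with 95% confidence intervals and filled points where the change was called. From 2 to 4 months 6 rose and Hbegf fell in rTg4510 and 0 were called in WT, and after 4 months Gpnmb in rTg4510 has the one filled point, at 1.28.

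Within rTg4510 microglia, 6 factors rose from 2 to 4 months, Spp1 by 2.75 ± 0.20, Gpnmb by 2.63 ± 0.32, Igf1 by 2.01 ± 0.24, Lgals3 by 1.79 ± 0.23, Vegfa by 1.02 ± 0.31 and Pdgfa by 0.61 ± 0.16 (SE), against 4.03% of all genes, and Hbegf fell by 0.76 ± 0.17, against 2.36%. In WT 0 factors were called over this step in limma and 0 had an unadjusted p under 0.05, where 0.0377% of all genes rose and 0.0108% fell. The rise of Vegfa did not hold without rTg4510 replicates 1 or 4 of 2 months or 1 or 4 of 4 months (FDR 0.0512 to 0.143), and that of Pdgfa without rTg4510 replicate 4 of 2 months or replicate 2 of 4 months, at 0.50 and 0.52. With all 32 libraries the change of Pdgfa was 0.36 (FDR 0.249), and that of Hbegf was -0.58, under 1.5 fold. With the spread of these 2 groups alone the calls of Vegfa, Pdgfa and Hbegf were lost (FDR 0.132, 0.123 and 0.0798). Gpnmb rose further in rTg4510 from 4 to 6 months by 1.28 ± 0.32 (FDR 0.0433), against 0.312% of all genes, and 0 factors fell, against 0.506%. That call was lost without any one of the 7 rTg4510 libraries of these ages (FDR 0.0596 to 0.159). It was also lost, at an FDR of 0.0503 to 0.0547, without rTg4510 replicate 1 of 2 months or replicate 2 of 8 months, or WT replicates 1, 3 or 4 of 2 months, 1 of 4 months or 3 of 6 months. The FDR was 0.0691 after quantile normalization and 0.0917 with the spread of the groups compared alone. From 6 to 8 months the change of 1.62 ± 0.32 had an FDR of 0.0514, where 0.00538% of all genes, the single gene Atp6v0d2, were called, and none fell. In WT 0 factors were called in limma over these later steps, against 0.00538% of all genes from 4 to 6 months and 0% from 6 to 8 months, and Spp1 from 4 to 6 months (0.70) was the 1 factor with an unadjusted p under 0.05. Over both steps together, from 4 to 8 months, Gpnmb rose by 2.90 ± 0.34 (FDR 4.37e-05, 7.46 fold), the second largest change of all genes, against 1.22% called higher and 1.1% lower, although with the spread of these 2 groups alone its FDR was 0.068. Spp1, Igf1 and Lgals3 changed over the same span by 0.28, 0.17 and 0.75, and none of these passed (FDR 0.506, 0.766 and 0.0772). In WT 0 factors were called in limma over that span, against 0.0323% and 0.0108% of all genes, and 3 had an unadjusted p under 0.05, Spp1 at 0.97, Gpnmb at 0.96 and Hbegf at -0.43. From 2 to 8 months 6 factors rose in rTg4510, Gpnmb by 5.53 ± 0.32, the largest change of all genes, Spp1 by 3.03, Lgals3 by 2.54, Igf1 by 2.18, Vegfa by 1.22 and Osm by 0.84, against 5.72% of all genes, and 0 factors were called lower, against 4.78%, with Hbegf at -0.54 (FDR 0.0221, 1.46 fold). The calls of Vegfa and Osm did not hold with all 32 libraries (FDR 0.0522 and 0.16), and that of Osm not without rTg4510 replicate 2 of 8 months (FDR 0.0642). Neither call held with the spread of the groups compared alone (FDR 0.0695 and 0.0575). Both of these longer spans were added after the values had been seen.

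At 2 months the 4 factors with the largest later differences were compared within each library, as differences of 2 log2 signals, after the values had been seen. Spp1 minus Igf1 was -2.16 ± 0.41 (SD, n = 4) in WT and -0.20 ± 0.13 (SD, n = 4) in rTg4510, a shift of 1.96, and Spp1 minus Lgals3 shifted by 1.34. Gpnmb minus Igf1 shifted by 0.92. Each of these gave p = 0.0286 in a two-sided exact permutation test, the smallest that 4 against 4 libraries allow, and 0.0571 after Benjamini-Hochberg adjustment over the 6 pairs. Gpnmb minus Spp1 shifted by -1.04 (exact p = 0.0571), Lgals3 minus Igf1 by 0.62 (exact p = 0.0571) and Gpnmb minus Lgals3 by 0.29 (exact p = 0.143). Gpnmb lay near the floor in all WT and 3 of 4 rTg4510 libraries of this age, which limits the pairs that hold it. At this size an adjusted p under 0.05 would have needed at least 4 of the 6 pairs at the smallest p, so the adjusted values bear little on whether Spp1 moved more than the other factors.

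The receptors and partners of the factors were read in the same libraries. The counts of each list stand beside 1.58%, 9.47%, 11.3% and 10.5% of all genes called higher at 2, 4, 6 and 8 months. Called lower at these ages were 0.403%, 4.33%, 8.54% and 5.37% of all genes. In the IGF, EGF, IL-6, osteopontin and Gpnmb lists, 1 or 2 genes called higher from 4 months on are near or little above that background. The same holds for 1 or 2 genes called lower in any of the lists. In the IGF axis 1 of 12 measured genes was higher at 4, 6 and 8 months, Igf2r, a receptor that carries IGF2 and lysosomal enzymes to the lysosome, by 1.30, 1.74 and 1.58 (SE 0.17, 0.15 and 0.17). All WT libraries of 6 months lay near the floor for Igf2r, which makes that change at least 2.36-fold higher. So did 2 of 3 WT libraries at 4 months and 1 of 3 at 8 months, and the changes at these ages are not exact. At 6 months 2 were lower, Igf2 by -1.39 ± 0.51 and the binding protein Igfbp4 by -0.62 ± 0.14. Igf1r, the signalling receptor of IGF1, was between -0.18 and 0.09 at all ages and did not pass. Igf1 itself is not counted in this list, nor are Pdgfa, Spp1, Lgals3, Gpnmb, Hbegf and Osm in the lists of their families below.

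Of 10 measured VEGF and PDGF ligands and receptors, 3, 4 and 3 were higher at the ages of 4, 6 and 8 months, and 2 were lower at 6 months. The 4 at 6 months included the ligand Vegfb (0.65), and the 2 lower ones were Pdgfra and Flt4 (-1.38), the lymphatic VEGF receptor. The receptor Flt1 was higher by 0.98 ± 0.28, 1.89 ± 0.24 and 1.17 ± 0.28 (SE) at 4, 6 and 8 months, and the co-receptors Nrp1 and Nrp2 by 0.82 to 1.02 and 1.01 to 1.31. Flt1 stands among the 10 endothelial markers too, of which it was the 1 that was higher at each of these ages, while 1, 3 and 1 were lower, with Pecam1 at -1.35, -2.12 and -2.04 and, at 6 months, Cdh5 and Ly6c1. Kdr, the main signalling receptor of VEGF in endothelium, lay between -0.25 and -0.08 and did not pass. Pdgfra, the receptor of oligodendrocyte precursors, was lower at 6 months by -1.92 ± 0.62 (FDR 0.0207), and Pdgfrb of pericytes lay between -0.39 and -0.01 and did not pass. Among 6 oligodendrocyte precursor markers Pdgfra was the 1 that fell at 6 months, and Cspg4, which that list shares with pericytes, was called higher. Cspg4 lay near the floor in 15 of 28 libraries, so no size is given for it.

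**Figure D4:**
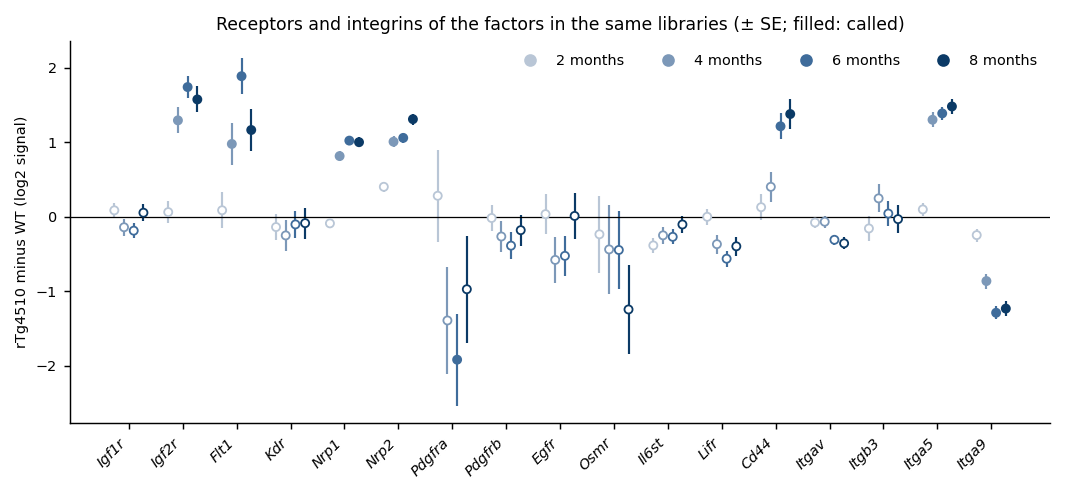
Difference between rTg4510 and WT in log2 signal (vertical axis, ± SE) of 17 receptors and integrins of the factors (horizontal axis) at 2, 4, 6 and 8 months, from light to dark blue, filled where called. Igf2r, Flt1, Nrp1, Nrp2, Cd44 and Itga5 rise, Itga9 falls to -1.29 at 6 months, and Igf1r, Kdr, Egfr, Osmr, Itgav and Itgb3 have no filled point.

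In the osteopontin list 9 genes were measured. Itga5, an integrin α chain, rose by 1.30, 1.39 and 1.48 (SE 0.10, 0.09 and 0.10) at 4, 6 and 8 months, and Itga9, the α chain of another osteopontin receptor, fell by 0.86, 1.29 and 1.23 (SE 0.10, 0.09 and 0.10). Cd44, which binds osteopontin and hyaluronan, rose by 1.22 ± 0.17 and 1.38 ± 0.20 at 6 and 8 months. Itgav and Itgb3, the chains of the classical osteopontin integrin, were not called, with -0.35 to -0.07 and -0.16 to 0.25. For Itgav the FDR was 0.00151 and 0.00198 at 6 and 8 months, with a change under 1.5 fold. In all 1, 2 and 2 of 9 were higher and 1 was lower at each of these ages, and 0 were called at 2 months. Of 9 galectins and partners, 1 was higher at 2 months and 3 at each later age, with Cd63, a tetraspanin of late endosomes, at 0.63 ± 0.08, 2.15 ± 0.09, 2.48 ± 0.08 and 2.41 ± 0.09, Lgals3bp, a galectin-3 binding glycoprotein, at 1.29 to 1.53 from 4 months on, and Lgals1 at 0.63 to 0.92. At 6 and 8 months 1 was lower, Lgals4, by -0.75 and -0.85. Of 9 relatives and partners of Gpnmb, 1, 2 and 2 were higher, Mitf, a transcription factor of pigment and lysosomal genes, by 0.62, 0.78 and 0.79 (SE 0.08, 0.07 and 0.08) and Cd44 as above.

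In the EGF family list, with 11 measured genes, the genes that rose were 2 of the processing machinery. Rhbdf2, which carries the sheddase ADAM17 to the cell surface, rose by 0.74 ± 0.13, 0.89 ± 0.11 and 0.99 ± 0.13 (SE) at 4, 6 and 8 months, and Adam9 by 0.59 ± 0.05 and 0.63 ± 0.06 at 6 and 8 months. Nrg4, a neuregulin, fell at 6 months by 0.75 ± 0.20, and Egfr lay between -0.58 and 0.04 and did not pass. That made 1, 2 and 2 genes higher and 0, 1 and 0 lower at 4, 6 and 8 months, without Hbegf, which was lower at 4 and 6 months. Of 17 genes of the IL-6 family, 2 were higher at 4 months, Il27ra by 3.13 ± 0.33 and Il6 by 0.82 ± 0.28, and 1 was lower, Il27 by -0.92 ± 0.30. Il27ra, the IL-27 receptor chain, was the 1 of these 17 genes that stayed called, at 2.55 ± 0.29 and 1.62 ± 0.33. Osm itself, called higher at 4, 6 and 8 months, is not counted among them. Osmr, Il6st and Lifr, the receptor chains of OSM and its relatives, had differences of -1.24 to -0.23, -0.38 to -0.10 and -0.56 to 0.00 and were not called. Il6st had an FDR of 0.0269 and 0.0495 at 2 and 6 months and Lifr of 0.0421, 0.000396 and 0.0258 at the later ages, each with a change under 1.5 fold.

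Among 19 other trophic factors, 2, 7, 8 and 6 were higher at 2, 4, 6 and 8 months and 2 were lower at 6 months. The 2 lower ones were Bmp2 (-1.03) and Ptn (-1.28). Hgf, hepatocyte growth factor, Grn, progranulin, and Psap, prosaposin, were called at 4, 6 and 8 months, at 1.07 to 1.18, 1.01 to 1.26 and 0.63 to 0.71. Csf1, a growth factor of microglia themselves, was higher by 1.88 ± 0.25, 3.87 ± 0.28, 3.71 ± 0.25 and 3.53 ± 0.28 (SE), and Tgfb2 by 1.43, 2.28 and 1.76 from 4 months on. Fgf2 was called at all 4 ages, but all its WT groups lay near the floor, and against that floor the change at 4 months was at least 2.48-fold higher. The list of 11 measured HIF targets, which holds no factor of the 9 but bears on Vegfa as a hypoxia-regulated gene, had 2, 5, 6 and 4 genes higher and 0 lower at 2, 4, 6 and 8 months. Egln3, a prolyl hydroxylase, was at least 5.17-fold higher at 4 months against a WT group near the floor, the glycolytic enzyme Pgk1 was higher by 1.29 ± 0.10, 1.14 ± 0.09 and 0.97 ± 0.10 from 4 months on, and Car9, a carbonic anhydrase, by 1.18 at 4 and 6 months. Of the 20 disease-associated microglia genes, a list that leaves out the 9 factors, 11, 20, 20 and 19 were higher at the 4 ages and 0 lower, with Cst7, a cystatin, at 1.32, 5.77, 4.88 and 4.59 and the lipoprotein lipase Lpl at 1.53, 4.74, 4.07 and 3.90. Both thus had their largest difference between genotypes at 4 months, as did Spp1, whereas Gpnmb, Lgals3 and Pdgfa had theirs at 8 months. The mean Spp1 signal itself was 8.09 at 4 months and 8.36 at 8 months in rTg4510, and 3.58 and 4.55 in WT. Such an order of ages within a gene was tested only through the differences between ages given above.

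The genes whose pattern was most like that of each factor were found by the root mean square difference of the 8 group means after centring each gene on its own mean. For Gpnmb these were Apoc1, an apolipoprotein, at 0.47, Lox, lysyl oxidase, at 0.61 and Minar1 at 0.66 log2 units. The difference between genotypes of Apoc1 was 0.83, 3.92, 4.44 and 4.72 at 2, 4, 6 and 8 months, beside 0.82, 3.50, 4.23 and 5.45 for Gpnmb. For Spp1 they were Chst2, a sulfotransferase, at 0.23, the protease Ctse at 0.26 and the chemokine Cxcl14 at 0.29. For Lgals3 they were Trpm6 at 0.11, Fabp3 at 0.15 and Ly9 at 0.19, of which Trpm6 lay near the floor in all WT groups, as did Lox and Minar1 above. For Igf1 they were Bcar3 at 0.17, the lysosomal galactosidase Gla at 0.18 and Postn, a matricellular protein, at 0.20. For Pdgfa they were Usp12, Septin11 and Eif3k at 0.06 to 0.08, for Pdgfb Armcx6, Arap1 and Arhgef4 at 0.03 to 0.06, and for Osm Pmaip1, Carmil1 and a histocompatibility pseudogene at 0.08 to 0.10. For Hbegf they were Tgm1, a transglutaminase, at 0.09 and 2 pseudogenes, and for Vegfa the interferon-induced Ifit2 at 0.16 and 2 pseudogenes. The likeness is over 8 group means of the same libraries and of 18588 genes, and factors with small changes have near neighbours of any kind. It is not scaled to the size of the changes, so factors with large changes have more distant neighbours.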

How the data were processed

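Microglia RNA from 2 genotypes and 4 ages had been sequenced as 32 libraries, of which 28 were used. The deposited values are log2 gene signals. The authors added up the reads of each exon over a library's runs, dropped an exon when over 80% of samples had under 10 counts for it, fitted gene values from exons robustly and scaled them to a common median, so each library has the same median of 5.63 and no depth or counting interval could be given. The genome build was GRCm38 per the submitters' processing notes, and the aligner is not given in the sources used here. RefSeq GRCm38.p6 named 95.9% of the 18588 Entrez numbers and gave start sites for 6 of the 9 genes.

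limma 3.58.1 in R 4.3.3 fitted 8 group means per gene with unmoderated variances, with FDR by Benjamini-Hochberg across the whole table for each contrast, and calls as defined above. No gene was filtered out. Replicates were separate pools per the study, whose p-values measure the spread between pools. A value within 1.585 of a library's lowest was taken as near the floor, where 3 counts would lie with an offset of 1.5. This is inferred from the values, of which 32.1% of 28094 low ones lay on such whole steps and 25.5% midway, within 0.003. A change given against the floor sets the mean of the higher group against this limit, with no allowance for the spread between pools. Marker sums are log2 of summed linear signals.

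The factors and lists were chosen with earlier results of these data known. Of each list, up to 3 genes with the largest mean change over 4, 6 and 8 months among those called were named, besides the receptors of the factors and the 3 genes nearest in pattern. Other genes named from the lists were chosen after their values were seen. The fit was checked on simulated data. Alternatives were all 32 libraries, each library left out, a replicate block, moderated variances, quantile normalization, a filter on low genes and only the groups compared. Same-numbered libraries of the 2 genotypes deviated together at 6 months (r across genes 0.131 to 0.153, beside -0.127 to 0.091 between unlike numbers) and 8 months (0.15 to 0.291, beside -0.259 to -0.028). At 2 months all same-numbered pairs were positive, at 0.065 to 0.167, but overlapped the unlike numbers at -0.194 to 0.082. At 4 months the ranges were -0.1 to 0.124 and -0.071 to 0.154. The numbers were therefore taken to pair libraries at 6 and 8 months on the values alone. The SE and FDR values given for the differences come from the fit without a block. Figures and sequences were handled with Python, pandas and matplotlib.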

Additional observations from a re-analysis of the deposited data

Results flagged for a closer look

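In 2 groups of 4, 1 library stood apart from the others. Spp1 in WT at 6 months was 3.75 in replicate 2 and 4.43 to 4.47 in the others. Pdgfb in WT at 6 months was 6.26 in replicate 1 and 6.53 to 6.58 in the others. Of 36 groups of 4 libraries examined these were the 2 found, and chance alone gives about 5% of groups.

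The difference between genotypes differed between 2 and 4 months for 5 factors, with a change of 2.69 for Gpnmb, 2.65 for Spp1, 1.72 for Lgals3, 2.47 for Igf1 and -0.78 for Hbegf. For Gpnmb the FDR was 0.057 with all 32 libraries.

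The 2 excluded rTg4510 libraries entered only the alternative with all 32 libraries. The one of 4 months held 3.27 for Gpnmb, 7.64 for Spp1, 7.62 for Lgals3, 7.60 for Igf1, 5.73 for Vegfa and 7.98 for Pdgfb, each above all WT libraries of that age, the excluded one included. The one of 8 months held 8.85 for Gpnmb, 7.79 for Spp1, 7.25 for Lgals3, 8.01 for Igf1, 6.85 for Pdgfa, 7.72 for Pdgfb and 8.00 for Osm, again above all WT libraries of its age. For Gpnmb and Osm the excluded library of 4 months, at 3.27 and 3.87, lay far below the kept rTg4510 libraries of that age, at 5.76 to 6.19 and 6.53 to 7.29. For Pdgfb both excluded rTg4510 libraries and both excluded WT libraries, at 7.36 and 7.08, lay above the kept libraries of their genotype and age.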

How the results depend on the processing

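The calls of Spp1 at all ages, of Gpnmb, Lgals3 and Igf1 at 4, 6 and 8 months, and of Pdgfa, Osm and Hbegf at 6 months (for Pdgfa and Osm also at 8 months) held under all alternatives that could be fitted. Osm at 4 months turned to -0.0945 with all 32 libraries. At 2 months 3 differences that did not pass turned sign when 1 library was left out, with ranges of -0.2429 to 0.0417 for Igf1, -0.0973 to 0.2837 for Vegfa and -0.0478 to 0.1297 for Pdgfb. The number of factors called higher at 2 months was 1 to 2 without 1 library. With only the groups compared, 0 factors were called lower at 4 months instead of 1, and 4 higher instead of 6, since Osm (FDR 0.206) and Pdgfa (FDR 0.0727) were lost. The number whose difference fell from 2 to 4 months was 0 instead of 1 with all 32 libraries, with moderated variances, after quantile normalization and with only the groups compared, and 0 to 1 without 1 library. The filter on low genes removed Gpnmb and Vegfa, which therefore have no value there. With the replicate block, all 41 differences tested stayed on their side of the threshold, and the number of factors called higher was again 1, 6, 6 and 6. At 6 and 8 months the FDRs of the called factors were higher with the block. They were 1.02e-06 and 1.21e-06 for Gpnmb, 2.38e-07 and 8.83e-07 for Spp1, and 0.00619 and 0.00395 for Pdgfa. The block is no evidence at 2 and 4 months, where the numbers were not taken to pair libraries. At 3 or 4 pools per group, the number of pools limits the precision. Gpnmb lies too near the floor for an exact fold in WT and, at 2 months, also in rTg4510.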
